A study of Mus musculus with 6 samples.

Results

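The genes described here are 41 enzymes and regulators of glutathione, NADPH and NRF2-dependent detoxification, chosen by name from a table of 55401 genes, of which each had a row. Their mRNA was read in macrophages that had been grown from mouse bone marrow over 7 days with L929 culture medium, a source of macrophage growth factor. In the L-OHP group, 3 samples received 5 µM L-OHP (oxaliplatin, a platinum drug) for 12 h. In the L-OHP+FUC group, 3 samples first received 250 µg/ml of fucoidan, a sulfated polysaccharide found in brown seaweed, over 12 h and then the same drug exposure. The comparison asks what the fucoidan pretreatment did to drug-exposed macrophages, and both groups carry the drug. Cells without the drug and cells with fucoidan alone were not analysed here. The sources used here give no strain, sex or age of the mice and leave unsaid whether each replicate had a culture of its own. The p-values therefore cover the spread between the samples at hand, and that spread may be technical.

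Glutathione is a small thiol peptide that reduces peroxides, is conjugated to reactive compounds by transferases, and also binds platinum drugs. It is built by glutamate-cysteine ligase and glutathione synthetase, and its oxidized form is reduced again with NADPH, which cells draw from the pentose phosphate pathway and malic enzyme. NRF2, encoded by Nfe2l2, is a transcription factor that is held down by the adaptor protein KEAP1 until oxidants or electrophiles modify KEAP1, and its activity is set mainly by protein stability. Together with small Maf proteins it binds antioxidant response elements near many of the genes below.

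With fucoidan pretreatment, the drug-exposed macrophages held more mRNA of most members that make glutathione or use it as a reductant. The same held for 5 of the 8 members of NADPH supply and the pentose phosphate pathway and for the quinone reductase Nqo1. The mRNA of Nfe2l2 and Keap1 did not pass the test. Of the 41 members 40 were tested, and 17 of these rose, none fell and 23 did not pass an adjusted p of 0.05 (limma on log2(FPKM + 1), Benjamini-Hochberg adjustment over 12084 genes). Among all tested genes, 27.0% were called in either direction, 7.67% higher and 19.3% lower, against 42.5% higher among the members. The median log2 fold change, L-OHP+FUC relative to L-OHP, was 0.44 over the members and -0.10 over all tested genes. At an unadjusted p under 0.05, 1 member was lower. The split over all genes depended on expression level. When only genes with a mean of at least 5 FPKM were tested, 754 genes were called higher and 966 lower. The median log2 fold change over all genes in that setting was -0.01. There 16 members were called higher and 0 lower, and the members' median was 0.44. The shares over all tested genes are therefore not a background matched to the members by level. The members' counts are a description, since the genes were chosen by name with earlier results of these data known.

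The values of the 3 libraries with fucoidan lay wholly above those of the 3 without it for 23 of 40 tested members, or 57.5%, against 16.1% of all tested genes. They lay wholly below for 1 member, Ggct, against 30.9% of all tested genes. The members called higher numbered 10 without L-OHP replicate 1, 11 without L-OHP+FUC replicate 1 and 9 without L-OHP+FUC replicate 2, and 15 or 16 without each of the other libraries. All genes called higher, 927 in the main analysis, numbered 373, 307 and 266 in the same order, and 615 to 1121 without each of the other libraries. In all, 8 of the 17 kept their call under each of the 16 alternative settings run, namely Gss, Gsr, Gsta3, G6pdx, Pgd, Tkt, Nqo1 and Cbr3.

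**Figure D1:**
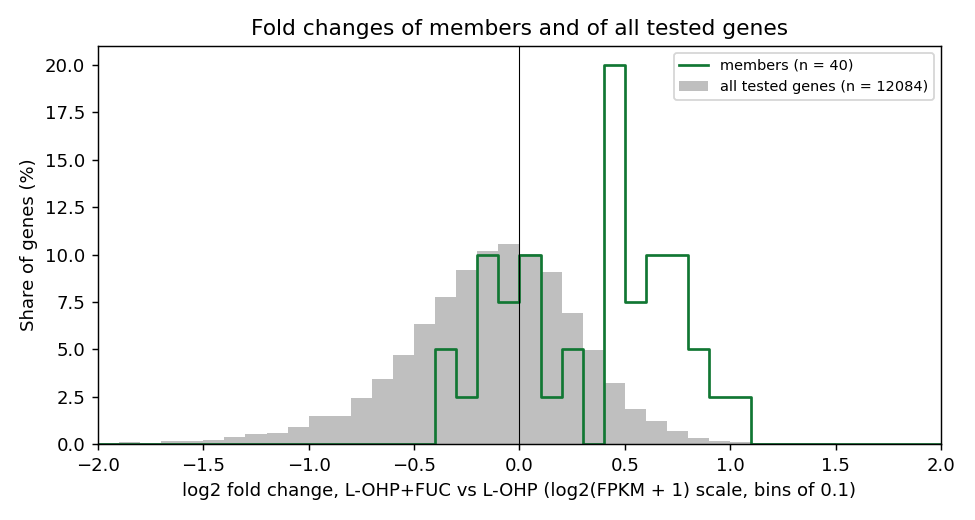
Share of genes (vertical axis, percent) by log2 fold change in bins of 0.1 (horizontal axis, L-OHP+FUC against L-OHP on the log2(FPKM + 1) scale, drawn from -2 to 2, with 28 of 12084 genes outside), for all tested genes (grey bars) and the 40 tested members (green line). The members' median lies at 0.44 and that of all tested genes at -0.10.

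Values are FPKM, fragments scaled to transcript length and library size, so levels can be compared between genes. The steps between low values pointed to a depth of 15700000 to 18600000 fragments per library. Pearson's r on the log2 scale was 0.968 to 0.981 within L-OHP, 0.983 to 0.988 within L-OHP+FUC and 0.950 to 0.965 between the groups, across genes, which are not independent replicates. All 8 macrophage markers passed the filter on low values, and their summed level was 12352 to 17833 FPKM with L-OHP and 13281 to 14274 FPKM with L-OHP+FUC. Of 10 neutrophil markers 2 passed the filter, with a sum of 3.79 to 4.26 FPKM with L-OHP and 5.70 to 6.56 FPKM with L-OHP+FUC, and Ly6g, Retnlg and Cxcr2 were listed at 0 in all libraries. Of 3 endothelial markers 1 passed, with sums of 2.49 to 3.00 and 1.47 to 1.56 FPKM, and of 4 T cell markers 1 passed, with sums of 3.65 to 5.61 and 2.05 to 2.43 FPKM, Cd3e and Cd3d being listed at 0 throughout. Of 7 fibroblast and stroma markers 5 passed, with sums of 5.18 to 12.4 and 7.77 to 8.21 FPKM, and Col1a1 was the highest. No B cell, dendritic cell, erythroid or mast cell marker passed. The part of these differences in the results was not tested, and in bulk samples fewer cells of a type and less RNA per cell cannot be told apart.

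Promoter sequences are shown for the members whose RefSeq promoter window (GRCm38.p6, the assembly of mm10) holds the core of the antioxidant response element, because this is the site NRF2 is known to bind. The windows run from 250 bases before to 50 bases after an annotated transcription start. The motif searched was TGACNNNGC, on either strand, so that it appears as GCNNNGTCA where it lies on the strand opposite to the gene. It was found in 9 of 45 member windows (20.0%) and in 12.39% of all 32851 windows. Windows were found for 37 members, 15 of them called higher, and 4 of these 15 held the motif, as did 5 of the 22 others. Sequences run 5′ to 3′ along the gene, capitals mark the motif, and positions count from the transcription start. The members that rose come before those that did not pass.
Gsta3, chr1:21240446-21240490, plus strand, motif at -121 to -113: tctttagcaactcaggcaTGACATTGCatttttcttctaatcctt
G6pdx, chrX:74428911-74428955, minus strand, motif at -57 to -49: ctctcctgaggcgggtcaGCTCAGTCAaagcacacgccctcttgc
Me1, chr9:86695912-86695938, minus strand, motif at -6 to 3: gctcggccgatgccgccgTGACTCAGC
Pgd, chr4:149166071-149166097, minus strand, motif at 4 to 12: tttttgtcatttcagagcTGACATTGC
Gclm, chr3:122245405-122245449, plus strand, motif at -134 to -126: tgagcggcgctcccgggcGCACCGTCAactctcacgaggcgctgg
Mgst1, chr6:138140453-138140497, plus strand, motif at -56 to -48: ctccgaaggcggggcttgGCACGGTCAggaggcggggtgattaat
Sod1, chr16:90220688-90220732, plus strand, motif at -56 to -48: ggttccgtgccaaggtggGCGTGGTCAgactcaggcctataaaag
Nfe2l2, chr2:75704877-75704913, minus strand, motif at -240 to -232: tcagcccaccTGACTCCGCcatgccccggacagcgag
Ggct, chr6:54993015-54993059, minus strand, motif at -174 to -166: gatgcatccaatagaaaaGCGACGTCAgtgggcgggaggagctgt
Ggct, chr6:54992854-54992880, minus strand, motif at 6 to 14: gtccggcttctctgtgctTGACGCTGC

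For Pgd, Me1 and Mgst1 the match lies in 1 of their 2 windows. That of Pgd (149166033 to 149166332) belongs to a start inside the gene, and the window at the outer start (149166656 to 149166955) holds no match. The match of Me1 also spells the AP-1 motif TGANTCA, which overlaps the core there, and TGANTCA occurred in 4 member windows (8.89%), those of Me1, Mgst2, Osgin1 and Gstp1, and in 7.81% of all windows.  The windows of Nqo1, Gss, Cbr3 and Tkt, which rose, hold no match to either motif, and elements farther from the start lie outside them. A match is a description of letters and not of a bound site.

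Neither regulator passed the test. Nfe2l2 (chromosome 2, 75675513 to 75704641 of mm10) had 99.1, 79.9 and 106 FPKM in L-OHP replicates 1 to 3, and its L-OHP+FUC replicates had 67.5, 76.9 and 84.1 FPKM. The groups overlapped by 1 L-OHP library, replicate 2 (log2 fold change -0.31, 95% interval -0.64 to 0.01, limma adjusted p = 0.134). Without that library the log2 fold change was -0.43 with an adjusted p of 0.0384 in limma. Keap1 stood at 19.7, 21.3 and 13.4 FPKM with L-OHP and at 16.4, 17.3 and 18.9 FPKM with L-OHP+FUC, and L-OHP held both its highest and its lowest value (log2 fold change -0.02, interval -0.43 to 0.38).

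**Figure D2:**
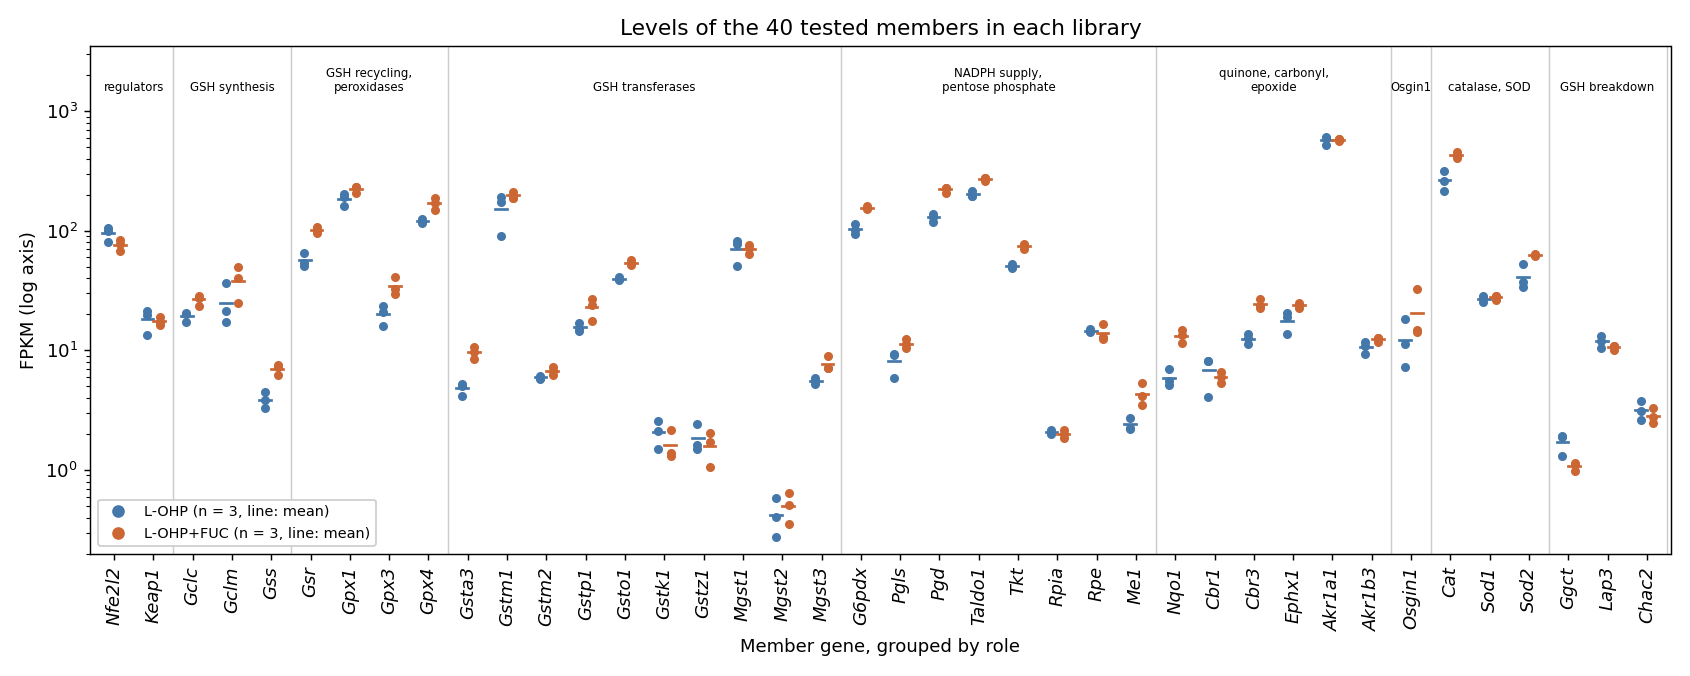
FPKM on a log axis (vertical) for each of the 40 tested members (horizontal), grouped by role, with 1 point per library and a line at the mean of each group (blue L-OHP, orange L-OHP+FUC, n = 3 each). Levels run from Mgst2, with means of 0.420 and 0.501 FPKM, to Akr1a1, with means of 574 and 578 FPKM.

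In glutathione synthesis, 2 of 3 members rose. Gclc encodes the catalytic subunit of glutamate-cysteine ligase, the rate-limiting enzyme of the pathway, on chromosome 9 (77754535 to 77794485). It stood at 20.0, 17.3 and 20.6 FPKM with L-OHP and at 23.6, 27.4 and 28.7 FPKM with L-OHP+FUC, without overlap. The rise was small (log2 fold change 0.44, SE 0.11, limma adjusted p = 0.0293). It lost its call without L-OHP replicate 1 (limma adjusted p = 0.0705), without L-OHP+FUC replicate 2 (0.102) or 3 (0.0742), and without the filter on low genes (0.0573). Gss, glutathione synthetase, which adds glycine in the last step, went from 3.85, 4.52 and 3.28 FPKM to 6.18, 7.26 and 7.53 FPKM. Its mean rose 1.80-fold (log2 fold change 0.71, SE 0.13, limma adjusted p = 0.0118). Gss overlaps Acss2 on the opposite strand, and no source used here says whether fragments were assigned by strand, so reads of such pairs cannot be told apart.

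Gclm, the modifier subunit that makes the ligase efficient, varied most in this role. Its L-OHP replicates 1 to 3 had 17.3, 21.4 and 36.3 FPKM, and its L-OHP+FUC replicates had 40.1, 24.8 and 49.7 FPKM. The groups overlapped, because L-OHP replicate 3 exceeded L-OHP+FUC replicate 2 (log2 fold change 0.61, 95% interval -0.17 to 1.39, limma adjusted p = 0.206). In the authors' deposited table Gclm has a log2 ratio of 0.61 and a q-value of 0.0342. The ratio of Gclm to Gclc FPKM within a library was 0.862, 1.24 and 1.76 under L-OHP and 1.70, 0.905 and 1.73 under L-OHP+FUC, and spanned the same range in both groups. Gclm transcripts share 244 identical bases with Gm10123 and Gm6061, copies of the abundant gene Ppia, and Gm6061 lies inside Gclm on the same strand. Gm10123 stood at 287, 105 and 130 FPKM with L-OHP and at 376, 100 and 78.3 FPKM with L-OHP+FUC, and the part of shared reads in the spread of Gclm was not tested.

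Among the enzymes that use and regenerate reduced glutathione, 3 of 4 members rose and the values of all 4 lay wholly higher with fucoidan. Gsr, glutathione reductase, which spends NADPH to reduce oxidized glutathione, stood at 50.7, 65.0 and 53.7 FPKM with L-OHP and at 94.9, 107 and 101 FPKM with L-OHP+FUC. It changed most in this role, with a mean 1.79 times as high (log2 fold change 0.83, SE 0.12, limma adjusted p = 0.00695), and lies on chromosome 8 (33652523 to 33698163). Gpx4, the peroxidase that reduces lipid hydroperoxides in membranes, stood at 116, 125 and 121 FPKM and at 188, 169 and 150 FPKM (log2 fold change 0.48, SE 0.11, limma adjusted p = 0.0215). It lost its call without L-OHP replicate 1 (0.0754) and without L-OHP+FUC replicate 1 (0.0724) or 2 (0.0819), as limma adjusted p. A processed copy, Gpx4-ps2, with 99.738% identity over 762 bases, stood at 36.3, 38.2 and 40.2 FPKM and at 70.4, 64.0 and 51.5 FPKM, in the same order of groups, so reads of the pair may not be told apart.

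Gpx3, the secreted glutathione peroxidase, went from 23.3, 16.1 and 21.0 FPKM to 40.8, 29.7 and 32.7 FPKM (log2 fold change 0.75, SE 0.17, limma adjusted p = 0.0213). The call did not survive leaving out L-OHP+FUC replicate 1 (limma adjusted p = 0.0692) or the filter (0.0558). Gpx1, the main cytosolic peroxidase, was the most abundant of the role at 203, 161 and 192 FPKM with L-OHP and 233, 232 and 206 FPKM with L-OHP+FUC. Its groups did not overlap, but the difference did not pass (log2 fold change 0.27, 95% interval -0.01 to 0.56, limma adjusted p = 0.129). The summed FPKM of the role was 383 ± 13.9 under L-OHP and 528 ± 34.2 under L-OHP+FUC (SD, n = 3).

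Glutathione transferases, which join glutathione to electrophiles, differed among themselves. Of 10 tested, 3 rose and 7 did not pass. Gsta3, an alpha-class transferase, stood at 5.08, 4.18 and 5.23 FPKM and at 8.39, 9.76 and 10.7 FPKM. This was the highest fold of the transferases, 1.99 between the means (log2 fold change 0.86, SE 0.12, limma adjusted p = 0.00702). Gsto1, an omega-class enzyme that reduces mixed disulfides, went from 39.1, 38.4 and 41.1 FPKM to 56.6, 53.7 and 52.0 FPKM (log2 fold change 0.44, SE 0.08, limma adjusted p = 0.0122). With L-OHP+FUC replicate 2 left out it was not called (limma adjusted p = 0.0561). Mgst3, a microsomal transferase, stood at 5.83, 5.26 and 5.57 FPKM and at 8.97, 7.08 and 7.11 FPKM (log2 fold change 0.41, SE 0.11, limma adjusted p = 0.0370). Leaving out any of the 6 libraries ended its call (limma adjusted p = 0.0505 to 0.0952), as did leaving out the filter (0.0722).

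The 2 most abundant transferases did not pass. Gstm1, a mu-class enzyme that made up 50.0% ± 6.46 of the summed transferase FPKM under L-OHP and 52.9% ± 1.84 under L-OHP+FUC (SD, n = 3), stood at 174, 90.4 and 192 FPKM and at 212, 189 and 189 FPKM. L-OHP replicate 2 stood far below its group and the other 2 L-OHP libraries near the L-OHP+FUC values (log2 fold change 0.44, 95% interval -0.21 to 1.09, limma adjusted p = 0.266). Mgst1, a membrane-bound enzyme, was also lowest in L-OHP replicate 2, at 76.7, 50.5 and 82.6 FPKM against 63.3, 75.7 and 71.9 FPKM, and had nearly equal group means (log2 fold change 0.04, interval -0.42 to 0.49). Its promoter window is among those with the core motif shown above. Gstp1, the pi-class transferase that is often studied in platinum resistance, stood at 15.4, 14.4 and 17.0 FPKM and at 26.9, 24.0 and 17.7 FPKM, without overlap. It missed the threshold narrowly (log2 fold change 0.51, interval 0.13 to 0.88, limma adjusted p = 0.0541) and passed without L-OHP+FUC replicate 3 (0.0164), after median ratio rescaling (0.0355) or the GC and length correction (0.0433), and with protein-coding genes only (0.0448). Gstp1 shares 98.161% identity over 707 bases with Gstp2, so its level is uncertain.

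The remaining transferases were low. Gstm2, next to Gstm1 on chromosome 3, had means of 5.93 ± 0.160 and 6.75 ± 0.526 FPKM (SD, n = 3), with all L-OHP+FUC values above all L-OHP values but no call (log2 fold change 0.16, limma adjusted p = 0.210). Gstk1, Gstz1 and Mgst2 had means between 0.420 and 2.06 FPKM and log2 fold changes of -0.22, -0.14 and 0.08 without a call. Mgst2 only just met the filter of 0.5 FPKM in at least 3 of 6 libraries, with a highest value of 0.638 FPKM. Gsta4 did not meet it, with a highest value of 0.203 FPKM, and was not tested.

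**Figure D3:**
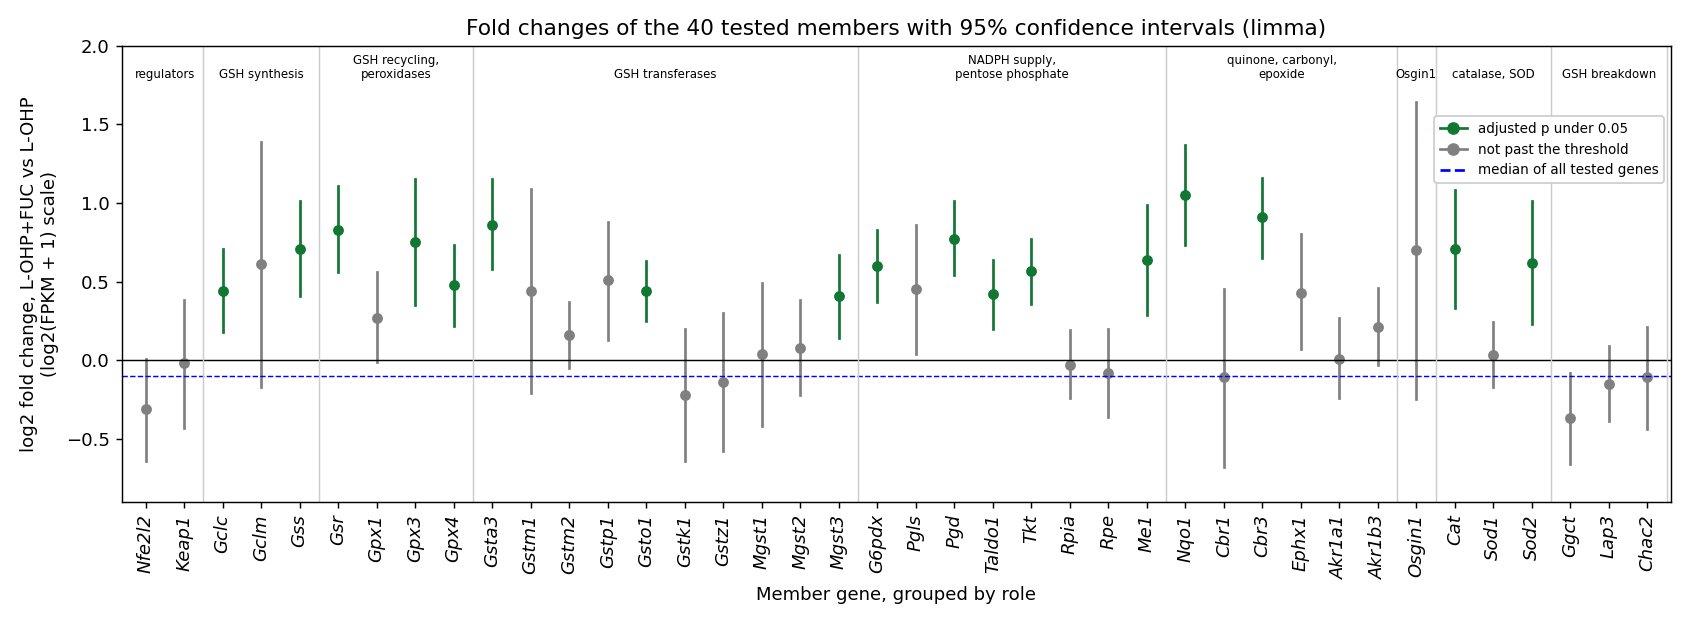
log2 fold change of L-OHP+FUC against L-OHP on the log2(FPKM + 1) scale (vertical axis) for the 40 tested members (horizontal axis), with 95% confidence intervals from limma. The 17 members past an adjusted p of 0.05 are green and all lie above 0, and the dashed line marks the median of all tested genes at -0.10.

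Of the 8 enzymes of NADPH supply and the pentose phosphate pathway, 5 rose, among them both dehydrogenases of the oxidative branch, transketolase and transaldolase. G6pdx, glucose-6-phosphate dehydrogenase, which commits glucose to the pathway and makes NADPH, stood at 113, 93.4 and 102 FPKM with L-OHP and at 161, 154 and 151 FPKM with L-OHP+FUC (log2 fold change 0.60, SE 0.10, limma adjusted p = 0.0101). Pgd, 6-phosphogluconate dehydrogenase, the other NADPH-producing step, went from 129, 138 and 119 FPKM to 228, 228 and 205 FPKM. The mean was 1.71 times as high (log2 fold change 0.77, SE 0.10, limma adjusted p = 0.00583). Tkt, transketolase, stood at 52.5, 49.7 and 48.4 FPKM and at 76.6, 78.1 and 70.1 FPKM (log2 fold change 0.57, SE 0.09, limma adjusted p = 0.00834). For each of these enzymes every L-OHP+FUC library exceeded every L-OHP library. G6pdx on chromosome X overlaps Ikbkg on the opposite strand, which had a mean of 6.53 FPKM.

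Taldo1, transaldolase, was the most abundant of the role at 196, 215 and 195 FPKM with L-OHP and at 275, 275 and 260 FPKM with L-OHP+FUC (log2 fold change 0.42, SE 0.09, limma adjusted p = 0.0191). It lost its call without L-OHP replicate 1 (limma adjusted p = 0.0703) and without L-OHP+FUC replicate 1 (0.0713) or 2 (0.0863). Me1, cytosolic malic enzyme, which yields NADPH from malate, was low at 2.26, 2.19 and 2.74 FPKM and at 3.48, 4.19 and 5.36 FPKM. It rose 1.81-fold between means (log2 fold change 0.64, SE 0.15, limma adjusted p = 0.0225), without a call when L-OHP replicate 1 (0.0734) or L-OHP+FUC replicate 2 (0.0712) was left out or no filter was used (0.0596). Pgls, the lactonase between G6pdx and Pgd, stood at 9.34, 5.88 and 9.21 FPKM and at 12.4, 11.2 and 10.4 FPKM, without overlap but short of the threshold (log2 fold change 0.45, interval 0.04 to 0.86, limma adjusted p = 0.0942). Part of Pgls is shared base for base with the overlapping gene Fam129c.

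Neither the epimerase nor the isomerase of the pathway, which make no NADPH, passed the test. Rpe, the epimerase, stood at 14.3, 15.0 and 14.5 FPKM with L-OHP and at 12.8, 12.4 and 16.5 FPKM with L-OHP+FUC, so that 2 of its L-OHP+FUC libraries lay below and 1 above all L-OHP libraries (log2 fold change -0.08, interval -0.36 to 0.20). Rpia, the isomerase, had means of 2.06 ± 0.0803 and 2.01 ± 0.156 FPKM (SD, n = 3; log2 fold change -0.03, interval -0.24 to 0.19). Both have the opposite sign after median ratio rescaling and after the GC and length correction. Summed over the role, the level was 511 ± 15.9 FPKM under L-OHP and 753 ± 27.8 FPKM under L-OHP+FUC (SD, n = 3), and Pgd made up 25.2% ± 1.22 of it under L-OHP and 29.3% ± 0.695 under L-OHP+FUC.

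Among the enzymes that remove quinones, carbonyls and epoxides, 2 of 6 rose. Nqo1, the NAD(P)H quinone reductase used widely as an indicator of NRF2 activity, lies on chromosome 8 (107388225 to 107403206). It stood at 7.01, 5.16 and 5.51 FPKM with L-OHP and at 13.4, 11.6 and 14.7 FPKM with L-OHP+FUC. This was the largest change among the 40 tested members, 2.25-fold between means (log2 fold change 1.05, SE 0.14, limma adjusted p = 0.00583), and Nqo1 was the 1 member marked significant in the authors' deposited table, a mark given only from 2-fold upwards. Cbr3, a carbonyl reductase, went from 11.3, 12.6 and 13.6 FPKM to 23.4, 26.9 and 22.5 FPKM (log2 fold change 0.91, SE 0.11, limma adjusted p = 0.00480), with the smallest adjusted p of the members.

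Cbr1, the related carbonyl reductase that lies next to Cbr3 on chromosome 16 (93605853 to 93610505, with Cbr3 at 93683215 to 93690990), did not pass. It stood at 8.14, 4.05 and 8.20 FPKM with L-OHP and at 6.04, 5.33 and 6.54 FPKM with L-OHP+FUC, so that L-OHP replicate 2 was lowest and the other 2 L-OHP libraries highest (log2 fold change -0.11, interval -0.68 to 0.45, limma adjusted p = 0.751). Without L-OHP replicate 2 its log2 fold change was -0.40 (limma adjusted p = 0.0391). Within a library, the ratio of Cbr3 to Cbr1 FPKM was 1.38, 3.11 and 1.65 under L-OHP and 3.88, 5.05 and 3.44 under L-OHP+FUC, without overlap. No test of this ratio was made.

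The other carbonyl and epoxide enzymes gave smaller differences. Ephx1, microsomal epoxide hydrolase, stood at 18.9, 13.6 and 20.5 FPKM and at 25.1, 22.7 and 23.8 FPKM without overlap (log2 fold change 0.43, interval 0.07 to 0.80, limma adjusted p = 0.0771), and passed after median ratio rescaling (0.0383). Akr1b3, aldose reductase, stood at 11.7, 9.28 and 10.8 FPKM and at 12.7, 12.7 and 11.8 FPKM (log2 fold change 0.21, limma adjusted p = 0.165), and passed after the GC and length correction (0.0456). Akr1a1, the aldehyde reductase, had the highest level of all members, 612, 591 and 518 FPKM with L-OHP and 586, 584 and 564 FPKM with L-OHP+FUC. Its values overlapped throughout (log2 fold change 0.01, interval -0.24 to 0.27). Osgin1, a growth-inhibiting protein induced by oxidative stress, varied widely at 11.2, 18.2 and 7.22 FPKM and at 14.3, 14.8 and 32.8 FPKM, with L-OHP+FUC replicate 3 far above the rest (log2 fold change 0.70, interval -0.25 to 1.64, limma adjusted p = 0.231).

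**Figure D4:**
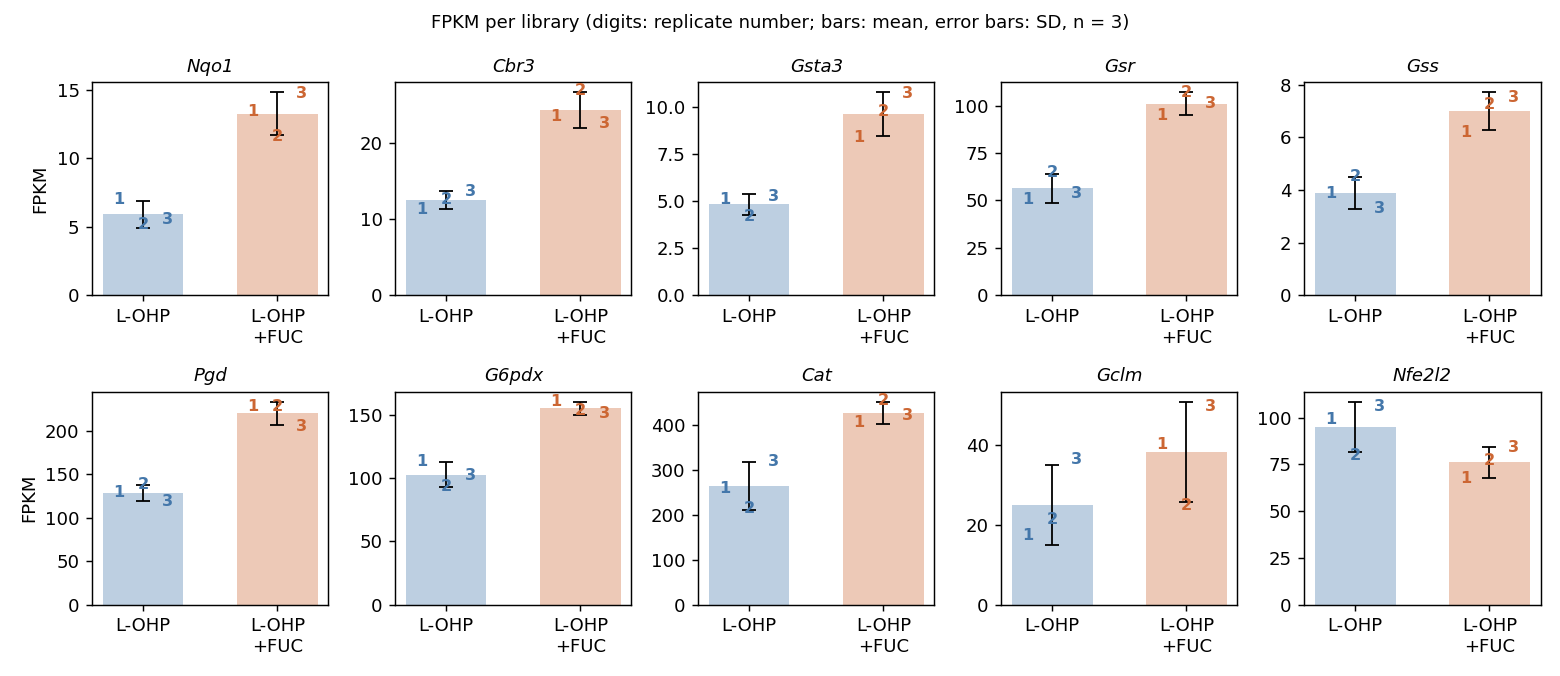
FPKM (vertical axes, linear, from 0) of 10 members in the L-OHP and L-OHP+FUC groups, with the mean as a bar, the SD as an error bar and each library as its replicate number. The 8 members from Nqo1 to Cat do not overlap between the groups, whereas Gclm and Nfe2l2 do.

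Of the enzymes that act on hydrogen peroxide and superoxide, 2 of 3 rose. Cat, catalase, the peroxisomal enzyme that splits hydrogen peroxide, stood at 259, 213 and 318 FPKM with L-OHP and at 405, 453 and 419 FPKM with L-OHP+FUC. The lowest L-OHP+FUC library was well above the highest L-OHP library (log2 fold change 0.71, SE 0.16, limma adjusted p = 0.0206). The call was lost without L-OHP replicate 1 (limma adjusted p = 0.0655), L-OHP+FUC replicate 1 (0.0626) or replicate 2 (0.0800), and without the filter (0.0584). Sod2, the mitochondrial manganese superoxide dismutase, went from 37.0, 53.0 and 33.8 FPKM to 63.1, 62.0 and 63.8 FPKM (log2 fold change 0.62, SE 0.16, limma adjusted p = 0.0340). Its L-OHP values were spread and its L-OHP+FUC values close together, and it kept the call only without L-OHP replicate 2 among the 6 libraries left out (limma adjusted p = 0.0779 to 0.103 for the others) and lost it without the filter (0.0794).

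Sod2 transcripts share 98.264% identity over 3110 bases with Rps6ka2, also on chromosome 17, which had a mean of 2.38 FPKM. Sod1, the cytosolic copper and zinc enzyme, stood at 28.6, 25.3 and 27.6 FPKM and at 28.7, 28.3 and 26.3 FPKM. Its interval was narrow (log2 fold change 0.03, 95% interval -0.17 to 0.24), and its promoter window holds the core motif shown above. The ratio of Sod2 to Sod1 FPKM was 1.29, 2.10 and 1.23 under L-OHP and 2.20, 2.19 and 2.43 under L-OHP+FUC.

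None of the 3 members that break glutathione or its products down passed. Ggct, which cleaves gamma-glutamyl amino acids, had the lowest fold change of the members, with 1.91, 1.88 and 1.31 FPKM with L-OHP and 1.09, 0.982 and 1.15 FPKM with L-OHP+FUC. It stood lower in all 3 L-OHP+FUC libraries (log2 fold change -0.37, interval -0.66 to -0.08, limma adjusted p = 0.0612) and passed as lower without L-OHP replicate 3 (0.0326) and with protein-coding genes only (0.0465). Lap3, an aminopeptidase that splits cysteinylglycine, stood at 13.2, 12.0 and 10.5 FPKM and at 10.1, 10.8 and 10.8 FPKM (log2 fold change -0.15, interval -0.39 to 0.09). Chac2, which degrades reduced glutathione at a slow constant rate, had means of 3.16 ± 0.562 and 2.84 ± 0.434 FPKM (SD, n = 3; log2 fold change -0.11, interval -0.44 to 0.21).

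Across the members, L-OHP replicate 2 was the lowest of its group for 21 of 40, and it was lowest for 40.8% of all tested genes. Averaged over the members, a library's log2 distance from each gene's mean was -0.13, -0.25 and -0.14 for L-OHP and 0.16, 0.14 and 0.21 for L-OHP+FUC, and over all tested genes it was 0.06, 0.07 and 0.06 and -0.10, -0.07 and -0.03. The members thus stood lower in each L-OHP library and higher in each L-OHP+FUC library than all genes did on average. Without L-OHP replicate 2 the members' median log2 fold change was 0.31.

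The authors' deposited table gives 21 of the 40 members a q-value below 0.05 and a ratio above 1, against 9.93% of the tested genes, and none has one with a ratio below 1, against 12.9%. Of these 21, 16 are among the 17 called higher by limma. The exceptions, named after their values were seen, are Mgst3, called by limma alone, and Gclm, Gstp1, Pgls, Ephx1 and Osgin1, which fall below that q-value in the authors' deposited table alone.

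A wider list of 114 other genes of the same pathways, chosen by function, gave 91 tested genes, of which 33 rose, 5 fell and 53 did not pass. The share that rose was 36.3%, and the median log2 fold change was 0.23. Over all tested genes 7.67% rose and 19.3% fell, a split that depended on expression level. Among its 28 tested NRF2 targets 16 rose (57.1%) and 2 fell, and among its 9 tested NRF2 partners and regulators 1 rose (11.1%) and 1 fell. Of its 12 tested other NADPH sources 5 rose, 1 fell and 6 did not pass. The 6 with the smallest adjusted p among the higher genes were Srxn1, Abcc1, Ptgr1, Txnrd1, Sqstm1 and Akr1b8. Srxn1 repairs overoxidized peroxiredoxins, Txnrd1 is the cytosolic thioredoxin reductase and Sqstm1 an autophagy receptor that binds KEAP1. They had log2 fold changes of 1.20, 0.68 and 1.18 (limma adjusted p = 0.00339, 0.00459 and 0.00523). Abcc1, an exporter of glutathione conjugates, went from 19.6, 21.6 and 20.5 FPKM to 36.8, 40.9 and 40.1 FPKM (log2 fold change 0.90, SE 0.08, limma adjusted p = 0.00339). Ptgr1, an NADPH-dependent reductase of prostaglandins and unsaturated aldehydes, stood at 32.5, 25.9 and 36.1 FPKM and at 72.6, 85.5 and 84.1 FPKM (log2 fold change 1.34, SE 0.14, limma adjusted p = 0.00407). Akr1b8, an aldo-keto reductase, stood at 20.7, 16.3 and 23.5 FPKM and at 41.7, 45.9 and 48.7 FPKM (log2 fold change 1.14, limma adjusted p = 0.00527). For each of these 3 genes the groups did not overlap.

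The cystine supply was also measured, in genes picked after their values were seen. Slc3a2, the heavy chain shared by several amino acid transporters, rose from 192, 200 and 170 FPKM to 336, 289 and 282 FPKM (limma adjusted p = 0.0103). Slc7a11, its partner in the cystine-glutamate exchanger, stood at 12.0, 14.8 and 11.5 FPKM and at 16.4, 18.5 and 26.5 FPKM (log2 fold change 0.62, limma adjusted p = 0.0484), but kept its call only without L-OHP replicate 2 when each library was left out in turn (0.0571 to 0.128 for the others). Mafg, a small Maf protein that pairs with NRF2, rose from 35.7, 34.8 and 36.1 FPKM to 48.3, 51.4 and 49.8 FPKM (limma adjusted p = 0.00907). The other small Maf genes overlapped between the groups and did not pass. Maff had means of 3.22 ± 0.872 and 4.85 ± 2.43 FPKM (SD, n = 3; log2 fold change 0.38, limma adjusted p = 0.443), and Mafk had 16.8 ± 5.57 and 15.0 ± 1.03 FPKM (SD, n = 3; log2 fold change -0.11, limma adjusted p = 0.728).

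The 5 genes of the wider list that fell were Hpgds, Abcc5, Akr1b10, Aldh1l1 and Rbx1. Hpgds, a sigma-class glutathione transferase that makes prostaglandin D2, had the largest drop, from 25.3, 22.0 and 31.1 FPKM with L-OHP to 4.88, 5.89 and 9.94 FPKM with L-OHP+FUC (log2 fold change -1.82, SE 0.24, limma adjusted p = 0.00639). Abcc5, an exporter of cyclic nucleotides and conjugates, went from 31.6, 33.3 and 31.5 FPKM to 17.7, 21.2 and 20.6 FPKM (log2 fold change -0.67, limma adjusted p = 0.00695). Hpgds and Abcc5 were called under each alternative setting run. Akr1b10, Aldh1l1 and the ubiquitin ligase subunit Rbx1 had log2 fold changes of -0.41, -0.44 and -0.37 (limma adjusted p = 0.0301, 0.0419 and 0.0442). They lost their calls after median ratio rescaling (0.0648, 0.0866 and 0.117) and quantile normalization (0.0859, 0.251 and 0.0926). The same held without the filter (0.0566, 0.0948 and 0.0790) and with the replicate block (0.0530, 0.0640 and 0.0652). With the GC and length correction, Akr1b10 (limma adjusted p = 0.0546) and Rbx1 (log2 fold change -0.16, limma adjusted p = 0.357) were not called. Rbx1 also lost its call with any single library left out (limma adjusted p = 0.0571 to 0.136). Without L-OHP replicate 1, L-OHP+FUC replicate 1 or L-OHP+FUC replicate 2, 2 genes of the list were lower in each case, and 16, 13 and 14 were higher.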

How the data were processed

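RNA of 6 libraries, depleted of ribosomal RNA, was sequenced. The authors deposited FPKM per gene, in which a value of 0.0001 stands for 0 and was read as 0. The authors' deposited table also gives a ratio of the group means, its log2 value, a p-value and a q-value, whose tool is not given in the sources used here. bcl2fastq 2.0, HISAT2, StringTie, DESeq2, limma and the mm10 build are named, without roles, per the submitters' processing notes. Low FPKM values were whole fragments within 0.03 in only 35.6 to 41.0% of cases, so no counts were recovered.

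Genes reaching 0.5 FPKM in 3 or more of the 6 libraries were compared as log2(FPKM + 1) with limma 3.58.1 in R 4.3.3, with an intensity trend, as L-OHP+FUC against L-OHP. P-values were adjusted by Benjamini-Hochberg over 12084 genes and called at 0.05. Fold changes of low genes are understated by the pseudocount. The fit was tested on simulated data. Low values aside, among them those listed at 0, no library pair held identical values. Replicates with the same number did not deviate together. Coordinates are from GENCODE M21, in which 99.53% of rows were found, promoters are from RefSeq GRCm38.p6, and near copies were sought with blastn 2.17.0 (at least 95% identity over 200 bases). The members and lists were chosen with earlier results of these data known. Every tested member is named, with each library's value for called members and for uncalled ones averaging 10 FPKM or more in either group. From the wider list, up to 6 genes per direction with the smallest adjusted p are named. Slc3a2, Slc7a11, Mafg, Maff and Mafk of that list were added after their values were seen. Alternatives changed the pseudocount, filter, scaling, trend, replicate block, GC and length correction, gene class and libraries.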

Additional observations from a re-analysis of the deposited data

How the results depend on the processing

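Among the 16 alternatives no member's call reversed. Over all members and alternatives, 583 comparisons stayed on their side of the threshold, 40 lost a call and 10 gained 1. Members called higher, 17 in the main analysis, numbered 11 without the filter on low genes and 9 to 16 with 1 library left out. Members called lower, 0 in the main analysis, numbered 1 with protein-coding genes only and 0 to 2 with 1 library left out. All genes called lower, 2335 in the main analysis, numbered 2021 with protein-coding genes only and 835 to 2256 with 1 library left out. The members' median log2 fold change, 0.44, was 0.56 after median ratio rescaling and 0.31 to 0.45 with 1 library left out. All genes called, 3262, numbered 2081 without the filter, 1720 with a mean of at least 5 FPKM, which tests fewer genes, 1460 with the GC and length correction and replicate block together, and 1101 to 3377 with 1 library left out. For the wider list, 33 higher calls became 19 without the filter, 20 with the GC and length correction and replicate block, and 13 to 30 with 1 library left out. Its 5 lower calls became 2 without the filter, 2 after median ratio rescaling, 3 after quantile normalization, 3 with the replicate block, 3 with the GC and length correction, 2 with that correction and the block, and 2 to 4 with 1 library left out. The cause of these changes was not tested.

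Scaling moved the split over all genes, from 927 higher and 2335 lower to 1581 and 1680 after median ratio rescaling, 1565 and 1359 after quantile normalization, and 1387 and 1437 with the GC and length correction. The median over all genes shifted by 0.09, 0.14 and 0.11 on the log2 scale, and the members' median stood 0.57, 0.38 and 0.40 above it, against 0.54 in the main analysis. Signs turned for 3 members after median ratio rescaling (Keap1, Rpia and Rpe), 7 after quantile normalization (Keap1, Gstk1, Gstz1, Rpia, Cbr1, Akr1a1 and Chac2) and 3 with the GC and length correction (Rpia, Rpe and Chac2), none of them called.

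With the replicate number as a block, 2316 of 12084 genes were called, 554 higher and 1762 lower. In that setting 12 members and 26 wider-list genes were called higher. The 5 members that lost their call were Gclc (limma adjusted p = 0.0571), Gpx4 (0.0549), Mgst3 (0.0511), Taldo1 (0.0541) and Sod2 (0.0546). With the GC and length correction as well, Gpx4 (0.0726) and Taldo1 (0.0644) were not called. Same-numbered libraries had correlations of deviations of -0.037, -0.071 and 0.083, so the numbers were not taken as pairs. Depth is known only roughly, so genes near 0.5 FPKM rest on few fragments, and no counting interval can be given.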
